A study of Mus musculus with 2 samples.

Results

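The 39 genes described here encode the enzymes of glycolysis, the proteins that carry glucose and lactate across the plasma membrane, and the hypoxia response that drives many of them. They were chosen by symbol from 27514 genes listed in both count tables of a single-cell RNA sequencing study of mouse intestinal adenoma organoids. They comprised 15 glycolytic enzymes, 4 enzymes of lactate and pyruvate, 4 transporters, 2 PFKFB regulators, Hif1a with 2 oxygen sensors, and 11 HIF targets outside glycolysis.

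Adenomas came from C57BL/6 ApcMin/+ mice aged 17 weeks. These animals carry a truncating mutation in 1 copy of Apc, the brake on Wnt signalling, and every group below shares that genotype. The RSPO1-Fc organoids were grown with RSPO1-Fc, a fusion of the Wnt enhancer R-spondin 1 to an antibody Fc part, at 10 µg/ml per the treatment notes, whereas the note of that library gives the same figure in mg/ml. The control organoids were grown without it. Each group was 1 library, and the number of mice behind it is not given in the sources used here, so no difference below has a replicate check and no p-value was computed.

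Glycolysis splits glucose to pyruvate in the cytosol, and lactate dehydrogenase turns pyruvate to lactate where oxygen or mitochondrial capacity is short. HIF-1 is a pair of transcription factors, HIF-1α and ARNT. In oxygenated cells the prolyl hydroxylases encoded by the Egln genes mark HIF-1α for destruction, and in hypoxic cells HIF-1 binds the core ACGTG near its targets. Wnt signalling and Myc also raise glycolytic genes in intestinal tumours.

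The epithelial cells had at least 5 UMIs (unique molecular identifiers, 1 for each captured RNA molecule) of Epcam, an epithelial adhesion protein, and at least 5960 UMIs in the RSPO1-Fc library or 9810 in the control library. The rule gave 2751 RSPO1-Fc epithelial cells, with a median of 23548 UMIs, and 1881 control epithelial cells, with a median of 27736. The 8 epithelial markers summed to 10014 CPM (UMIs scaled to the same total in each group of cells) in RSPO1-Fc and 8288 CPM in control epithelial cells, against 120 CPM in the 388 control cells under the Epcam minimum. In the RSPO1-Fc library only 16 cells lay under that minimum and none of them had 10 UMIs of non-epithelial markers, so the non-epithelial cells are from the control alone. By their markers they comprised 190 macrophage-marker cells, 78 endothelial-marker cells, 111 mesenchymal-marker cells (fibroblast or pericyte genes) and 9 cells in no gate.

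The libraries stood apart in more than treatment. Xist, transcribed in cells with more than 1 X chromosome, had 3 UMIs in RSPO1-Fc epithelial cells and 100820 in control epithelial cells, and the Y-linked Eif2s3y had 3980 in RSPO1-Fc and 0 in control cells. Gata4, a factor of the proximal small intestine, had 3090 UMIs in RSPO1-Fc and 1 in control cells. The tables also list different numbers of genes and barcodes (27998 and 737280 for RSPO1-Fc, 31053 and 6794880 for the control). The labels name the same reagent kit for both libraries, but the barcode lists differ, and whether the kit differed was not tested. Sex, gut segment, table version, any difference in kit and RSPO1-Fc therefore cannot be told apart in any ratio between the libraries. No cell barcode occurred in both.

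The RefSeq table of promoter windows (GRCm38.p6, 250 bases before to 50 after each start) held 36 of the 39 members, all but Slc2a3, Bnip3l and Ndrg1. ACGTG was searched on both strands, so that CACGT also counts and a CACGTG counts as a match on each strand. It occurred in 30 of the 53 windows of members (56.6%) and in 6447 of all 32851 windows of that length (19.6%). It was in 9 of 12 windows of the HIF targets outside glycolysis and in 11 of 25 of the enzymes. A match is a description of the sequence and not a binding site. The 150 bases before the start are shown, 5′ to 3′ on the gene's strand with matches in capitals, for 5 members chosen after their values were seen. Outside the 15 enzymes, Ldha, Slc16a3 and Bnip3 had the highest correlation with the enzymes from cell to cell in both libraries, and Car9 and Ankrd37 were over 2-fold higher in RSPO1-Fc cells.
Ldha, chr7:46845654-46845803, plus strand: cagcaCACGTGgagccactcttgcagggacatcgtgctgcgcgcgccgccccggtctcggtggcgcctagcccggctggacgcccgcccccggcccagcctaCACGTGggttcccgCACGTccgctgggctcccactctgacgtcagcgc
Slc16a3, chr11:120948917-120949066, plus strand: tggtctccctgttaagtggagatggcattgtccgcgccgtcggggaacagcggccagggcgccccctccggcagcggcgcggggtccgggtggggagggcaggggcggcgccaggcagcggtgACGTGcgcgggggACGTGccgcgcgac
Bnip3, chr7:138909507-138909656, minus strand: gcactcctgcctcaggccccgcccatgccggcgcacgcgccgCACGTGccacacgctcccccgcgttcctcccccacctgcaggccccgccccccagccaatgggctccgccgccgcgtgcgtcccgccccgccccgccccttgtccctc
Car9, chr4:43506876-43507025, plus strand: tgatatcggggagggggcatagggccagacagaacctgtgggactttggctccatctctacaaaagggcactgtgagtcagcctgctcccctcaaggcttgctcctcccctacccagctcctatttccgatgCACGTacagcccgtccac
Ankrd37, chr8:45999851-46000000, minus strand: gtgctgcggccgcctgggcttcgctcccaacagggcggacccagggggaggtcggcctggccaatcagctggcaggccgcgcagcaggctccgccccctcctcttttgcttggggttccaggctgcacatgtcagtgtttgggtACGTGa
Ldha had 2 windows, of which 1 held any match and is the one shown, with 5 matches that include 2 whole CACGTG boxes. The Car9 match began 18 bases before the start. No match was found in the windows of Eno1, Pfkl, Pdk1 or Adm, members that were also over 2-fold higher in RSPO1-Fc cells. Slc16a1, likewise higher, had matches. Of the members over 2-fold lower in RSPO1-Fc cells, Pgk1, Egln1, Vegfa and Mxi1 had a match in at least 1 window and Ldhb had none. Matches thus occurred among members of either direction.

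**Figure D1:**
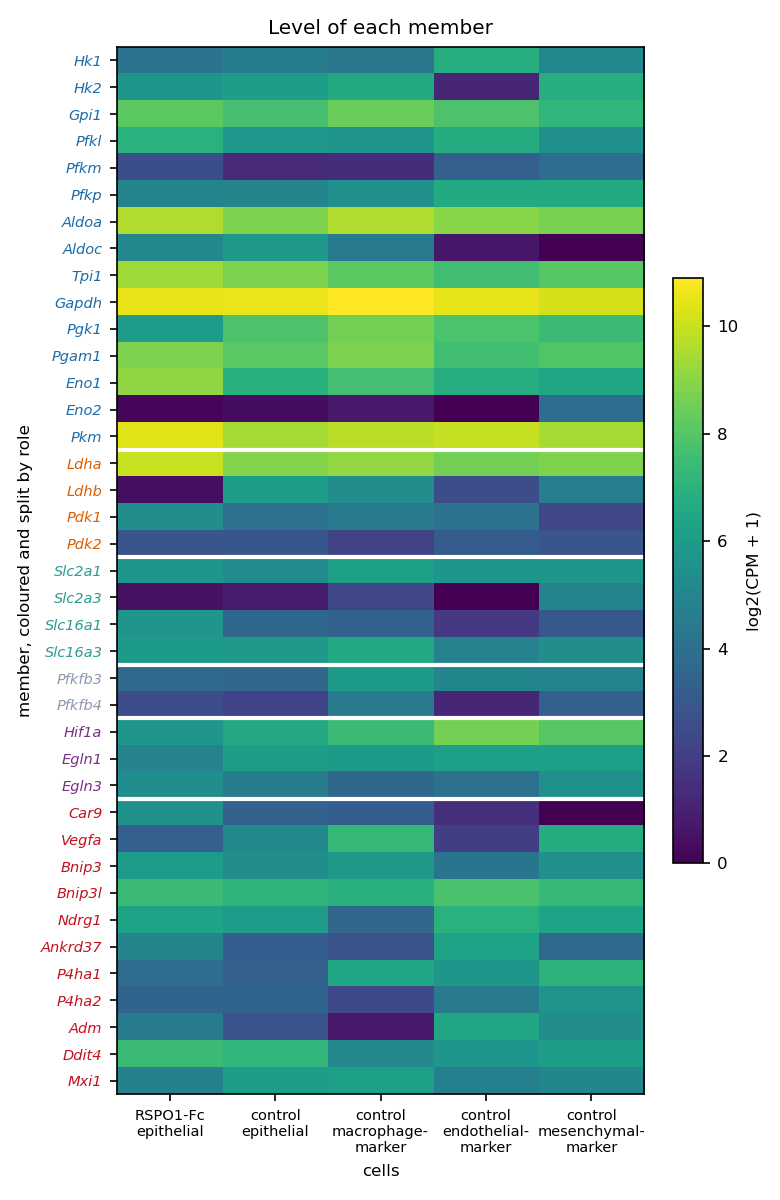
Level of all 39 members as log2(CPM + 1) in RSPO1-Fc epithelial cells, control epithelial cells and the 3 kinds of control non-epithelial cells, 1 library a group, with members split by role. Gapdh, Aldoa and Pkm are bright in every column, whereas Hk2, Aldoc and Vegfa are dark in endothelial-marker cells and Ldhb is dark in RSPO1-Fc epithelial cells.

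In RSPO1-Fc epithelial cells most of the pathway's abundant enzymes were higher than in control epithelial cells, but single steps went the other way and the HIF targets split. Of the 39 members, 31 reached 20 CPM in either library, and 20 of these were above a ratio of 1, against 41.7% of all 6911 genes at that level. At least 2-fold higher were 8 members (Pfkl, Eno1, Ldha, Pdk1, Slc16a1, Car9, Ankrd37 and Adm), and at least 2-fold lower were 5 (Pgk1, Ldhb, Egln1, Vegfa and Mxi1). Over all genes 7.23% were that much higher and 18.7% that much lower. With TMM scaling, which lifted the median log2 ratio of all genes to 0.21 (−0.18 without it), the split was 12 members higher and 3 lower, against 14.3% and 11.2% of all genes. Relative to the all-gene median, the median log2 ratio of the enzymes was 0.65 without TMM and 0.60 with it. Intervals beside a fold are 95% intervals of the UMI counts and cover counting error only.

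The upper steps of glycolysis showed no common direction. Hk1 and Hk2, the hexokinases that trap glucose as glucose 6-phosphate, had 16.6 and 51.4 CPM in RSPO1-Fc cells and 23.5 and 67.0 CPM in control cells, log2 ratios of −0.48 and −0.38. Gpi1, the isomerase that follows, had 284 CPM in RSPO1-Fc and 204 CPM in control cells (log2 ratio 0.48). Pfkl, the liver-type subunit of the committing enzyme phosphofructokinase, had 124 CPM in RSPO1-Fc cells and 54.9 CPM in control cells, a 2.26-fold difference (2.18 to 2.35). Its platelet-type partner Pfkp had 28.5 CPM in RSPO1-Fc and 29.8 CPM in control cells, a log2 ratio of −0.06 that was above 0 with TMM scaling (0.27) and without the cells that held non-epithelial markers (0.10). Pfkl thus supplied 78.6% of phosphofructokinase UMIs in RSPO1-Fc cells (77.9 to 79.4) and 63.7% in control cells (62.4 to 64.9). UMIs mark the 3′ ends of molecules and are not scaled by transcript length. Pfkm, the muscle type, was under the 20 CPM minimum in both, at 5.23 CPM in RSPO1-Fc and 1.54 CPM in control cells.

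From aldolase onward the main isoforms were higher in RSPO1-Fc cells, with Gapdh level and Pgk1 lower. Aldoa had 774 CPM in RSPO1-Fc cells and 449 CPM in control cells, Tpi1 650 CPM in RSPO1-Fc and 428 CPM in control cells, Pgam1 450 CPM in RSPO1-Fc and 280 CPM in control cells, and Pkm 1341 CPM in RSPO1-Fc and 696 CPM in control cells, all between 1.52-fold and 1.93-fold higher. Aldoc, the brain-type aldolase, went the other way, with 32.5 CPM in RSPO1-Fc and 56.6 CPM in control cells, and made up 4.03% of the UMIs of Aldoa and Aldoc in RSPO1-Fc cells and 11.2% in control cells. Gapdh, the dehydrogenase often used as a constant reference, had 1483 CPM in RSPO1-Fc and 1533 CPM in control cells. Its log2 ratio of −0.05 was above 0 with TMM scaling (0.29) and as a mean of per-cell CPM (0.01).

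Eno1, the enolase of most tissues (chr4:150236721-150248879, GRCm38), had the widest gap of the enzymes on the higher side. It had 547 CPM in RSPO1-Fc cells and 119 CPM in control cells, or 38455 UMIs in RSPO1-Fc and 7948 in control cells, a 4.60-fold difference (4.49 to 4.72). In cells thinned to 5960 UMIs, 91.0% of RSPO1-Fc cells and 48.9% of control cells had an Eno1 UMI. Unthinned, these shares were 99.1% in RSPO1-Fc and 91.1% in control cells. Eno1b, a near copy that shares 55.4% of the 91-base windows in the last 1000 bases of Eno1 transcripts, is listed in both tables and had 464 UMIs in RSPO1-Fc and 82 in control cells. Reads that match both genes cannot be assigned to one of them. Eno2, the neuronal enolase, had 10 UMIs in RSPO1-Fc and 19 in control cells.

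Pgk1, the phosphoglycerate kinase that makes the first ATP of the pathway (chrX:106187100-106203699), was 3.68-fold lower (3.56 to 3.80). It had 63.6 CPM in RSPO1-Fc cells and 234 CPM in control cells. The neighbouring steps in the pathway did not share this direction, since Gapdh was level and Pgam1 was 1.61-fold higher. Pgk1 also has a near copy, the processed pseudogene Pgk1-rs7, which is listed in the RSPO1-Fc table only, with 79 UMIs in these cells. It shares 54.1% of the 91-base windows of the Pgk1 tail, all of them at least 418 bases from the 3′ end. The part of that listing in the Pgk1 ratio was not tested. For Gapdh the case is the reverse, since Gm10358, which shares 40.3% of its windows, is listed in the control table only and had 0 UMIs there.

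The lactate dehydrogenase subunits diverged. Ldha, whose subunit favours the making of lactate, had 1008 CPM in RSPO1-Fc cells and 467 CPM in control cells, a 2.16-fold difference (2.13 to 2.19). Ldhb, whose subunit favours the return of lactate to pyruvate (chr6:142490249-142507957), had 24 UMIs in RSPO1-Fc cells and 4509 in control cells, which is 0.34 CPM in RSPO1-Fc and 67.4 CPM in control cells and 197-fold lower (133 to 308). Ldhb was therefore 0.0339% of the UMIs of Ldha and Ldhb in RSPO1-Fc cells (0.0217 to 0.0504) and 12.6% in control cells (12.3 to 13.0). In thinned cells a Ldhb UMI was found in 0.182% of RSPO1-Fc cells and 26.2% of control cells. Unthinned, the shares were 0.763% in RSPO1-Fc and 54.8% in control cells. In the control non-epithelial cells they were 34.2% of macrophage-marker, 31.5% of mesenchymal-marker and 10.3% of endothelial-marker cells. The endothelial-marker cells had a median of 17367 UMIs. Pdk1, a kinase that shuts pyruvate dehydrogenase and is a HIF target, was 2.47-fold higher (39.3 CPM in RSPO1-Fc and 15.9 CPM in control cells). Pdk2 was under the minimum, at 6.44 CPM in RSPO1-Fc and 6.64 CPM in control cells.

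Among the transporters, Slc16a1 stood apart. It encodes the monocarboxylate transporter MCT1 and had 50.3 CPM in RSPO1-Fc cells and 11.4 CPM in control cells, a 4.43-fold difference (4.09 to 4.79). Slc16a3, which encodes MCT4, the lactate exporter of glycolytic cells and a HIF target, had 59.8 CPM in RSPO1-Fc and 58.7 CPM in control cells, a log2 ratio of 0.03 that was −0.01 with an Epcam minimum of 20 UMIs and 0.36 with TMM scaling. Slc16a1 thus made up 45.7% of the UMIs of this pair in RSPO1-Fc cells and 16.2% in control cells. Slc2a1, the basal glucose transporter GLUT1, had 51.9 CPM in RSPO1-Fc and 37.5 CPM in control cells, and Slc2a3, GLUT3, only 29 UMIs in RSPO1-Fc and 55 in control cells. The regulators Pfkfb3 and Pfkfb4, which make the activator fructose 2,6-bisphosphate, were under the minimum in both libraries (log2 ratios 0.20 and 0.39, with no value above 12.8 CPM).

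Hif1a and the oxygen sensors did not move together. Hif1a had 52.8 CPM in RSPO1-Fc cells and 95.5 CPM in control cells (log2 ratio −0.84). Its exons overlap 148 bases of Gm49321, a gene listed in the control table only, with 0 UMIs. Egln1, which encodes the main sensor PHD2, was 2.46-fold lower (2.33 to 2.59), at 27.6 CPM in RSPO1-Fc and 67.8 CPM in control cells, whereas Egln3, which encodes PHD3 and is itself a HIF target, had 39.6 CPM in RSPO1-Fc and 23.8 CPM in control cells and was 1.66-fold higher (1.56 to 1.77). Egln3 supplied 58.9% of the UMIs of the pair in RSPO1-Fc cells (57.5 to 60.3) and 26.0% in control cells (24.9 to 27.1).

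The 9 measured HIF targets outside glycolysis had a median log2 ratio of 0.36, with 7 above 0 and 2 below. Car9, the membrane carbonic anhydrase that exports acid from hypoxic cells, had 46.9 CPM in RSPO1-Fc cells and 9.78 CPM in control cells, 4.80-fold higher (4.41 to 5.23). A Car9 UMI was found in 21.3% of thinned RSPO1-Fc cells and 4.57% of thinned control cells (unthinned, 53.9% of RSPO1-Fc and 16.5% of control cells). Among cells that should lack the gene, the share was 4.74% of thinned macrophage-marker cells (13.2% unthinned, median 14590 UMIs), close to that of control epithelial cells, and 1.28% of thinned endothelial-marker cells. In mesenchymal-marker cells it was 0 of 111, which allows up to 3.27%, so the share was not alike in all types. Adm, the vasodilator adrenomedullin, had 21.5 CPM in RSPO1-Fc and 5.96 CPM in control cells (3.61-fold higher, 3.23 to 4.04), and Ankrd37, an ankyrin-repeat protein, had 30.1 CPM in RSPO1-Fc and 8.64 CPM in control cells (3.49-fold higher, 3.18 to 3.83). Bnip3, a receptor for the removal of mitochondria, had 64.5 CPM in RSPO1-Fc and 41.1 CPM in control cells, its relative Bnip3l 171 CPM in RSPO1-Fc and 135 CPM in control cells, Ndrg1 80.0 CPM in RSPO1-Fc and 62.0 CPM in control cells, and Ddit4, an inhibitor of mTORC1, 171 CPM in RSPO1-Fc and 142 CPM in control cells. All 4 were under 2-fold.

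Vegfa and Mxi1 went against the other HIF targets. Vegfa, the growth factor of blood vessels, had 9.09 CPM in RSPO1-Fc cells and 35.4 CPM in control cells, 3.89-fold lower (3.57 to 4.25). Mxi1, an antagonist of Myc, had 26.2 CPM in RSPO1-Fc and 65.9 CPM in control cells, 2.51-fold lower (2.38 to 2.66). Non-epithelial markers were also lower in RSPO1-Fc epithelial cells. The 10 macrophage markers summed to 5.06 CPM in RSPO1-Fc and 99.8 CPM in control cells, with 4 of them at 0 in RSPO1-Fc and 0 in control cells, the 10 endothelial markers to 35.4 CPM in RSPO1-Fc and 68.1 CPM in control cells (1 at 0 in RSPO1-Fc cells), the 10 fibroblast markers to 40.0 CPM in RSPO1-Fc and 97.2 CPM in control cells (none at 0), and the 10 pericyte or smooth muscle markers to 12.3 CPM in RSPO1-Fc and 53.7 CPM in control cells (3 at 0 in RSPO1-Fc cells). With epithelial cells that held 5 or more such UMIs left out, the log2 ratio was −1.87 for Vegfa (−1.85 with them) and −0.80 for Hif1a (−0.84). P4ha1 and P4ha2, the subunits of collagen prolyl hydroxylase, were under the minimum.

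**Figure D2:**
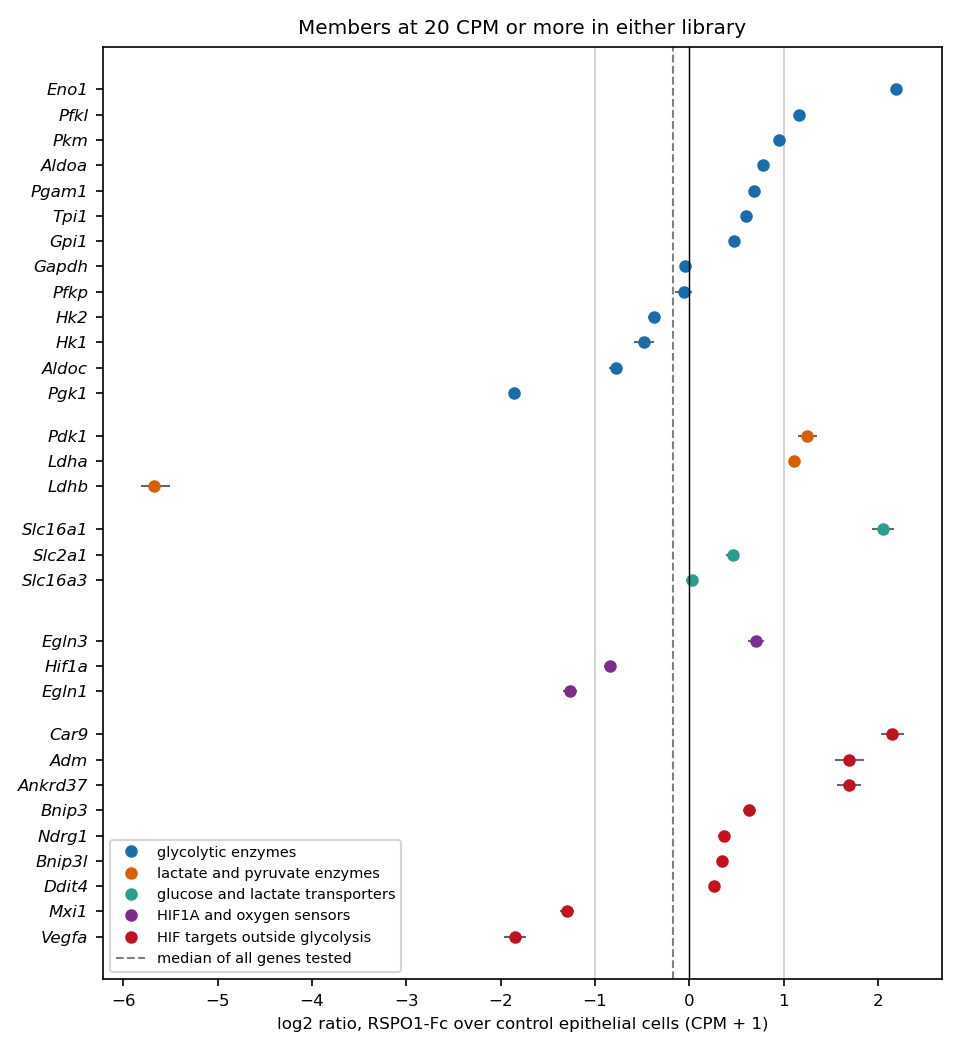
Log2 ratio of CPM + 1, RSPO1-Fc over control epithelial cells, for the 31 members at 20 CPM or more, 1 library each. Bars are 95% counting intervals, grey lines mark 2-fold and the dashed line is the median of all 6911 genes (−0.18). Eno1, Car9 and Slc16a1 lie furthest right and Ldhb lies at −5.67.

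Genes of the pathway outside the members were counted in the same way. Of 30 other glycolytic and branch genes, 16 were measured, 4 of them at least 2-fold higher and none at least 2-fold lower, with a median log2 ratio of 0.67. Among the highest were the muscle enolase Eno3 (41.8 CPM in RSPO1-Fc and 9.57 CPM in control cells) and Rpia of the pentose phosphate pathway (160 CPM in RSPO1-Fc and 56.3 CPM in control cells), and the lowest were Bpgm, Pygb and Gpd2 (log2 ratios −0.86, −0.43 and −0.15). Of 11 genes for the entry of pyruvate to mitochondria, 8 were measured, with a median of −0.19 and Pdp2, a phosphatase that reactivates pyruvate dehydrogenase, 5.03-fold lower (8.92 CPM in RSPO1-Fc and 44.9 CPM in control cells). Of 31 other HIF targets, 13 were measured, 3 at least 2-fold higher and 1 lower, with a median of 0.36. These were Edn1 (393 CPM in RSPO1-Fc and 47.8 CPM in control cells), Mif (1565 CPM in RSPO1-Fc and 540 CPM in control cells) and Ero1l (67.0 CPM in RSPO1-Fc and 30.9 CPM in control cells) on the higher side and Pgf (3.95 CPM in RSPO1-Fc and 26.9 CPM in control cells) on the lower side. None of the 8 measured HIF pathway components differed 2-fold, and Arnt, the partner of HIF-1α, had 13.4 CPM in RSPO1-Fc and 20.9 CPM in control cells. The 20 nuclear genes of the respiratory chain had a median of 0.19 with none 2-fold different. The 16 cycling genes had a median of 0.89, with 6 at least 2-fold higher. Of 10 other glucose and lactate transport genes only Bsg, the chaperone of the lactate transporters, was measured (709 CPM in RSPO1-Fc and 964 CPM in control cells).

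Within the control library, most members were lower in epithelial than in non-epithelial cells. Of 31 members at 20 CPM in epithelial or non-epithelial cells, 3 were at least 2-fold higher in epithelial cells (Aldoc, Ldhb and Ddit4) and 8 at least 2-fold lower (Pfkp, Pfkfb3, Hif1a, Vegfa, Ankrd37, P4ha1, P4ha2 and Adm). Over 7887 genes 16.5% were that much higher and 21.3% that much lower. Above a ratio of 1 were 8 of the 31, against 58.2% of all genes. The enzymes had a median log2 ratio of −0.28, with Gapdh at 1533 CPM in epithelial cells and 1589 CPM in non-epithelial cells.

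The 8 members at least 2-fold lower in the epithelium were so against all non-epithelial cells pooled. Of these, Pfkp and Pfkfb3 act on glycolysis itself and the other 6 belong to the hypoxia response. Pfkp, Pfkfb3, Hif1a and P4ha1 were lower in epithelial cells than in each kind of non-epithelial cell. Adm (5.96 CPM), Ankrd37 (8.64 CPM) and P4ha2 (10.5 CPM) were higher in epithelial than in macrophage-marker cells (0.67, 5.99 and 4.33 CPM). Vegfa was higher in epithelial (35.4 CPM) than in endothelial-marker cells (3.09 CPM). P4ha1 had 9.18 CPM in epithelial cells and 90.3 CPM in non-epithelial cells, 9.84-fold lower (at least 8.77 by its interval). Adm had 5.96 CPM in epithelial and 32.7 CPM in non-epithelial cells, 5.49-fold lower (4.62 to 6.50), and Vegfa 35.4 CPM in epithelial and 101 CPM in non-epithelial cells, 2.87-fold lower (2.62 to 3.13). Hif1a had 95.5 CPM in epithelial and 252 CPM in non-epithelial cells, 2.63-fold lower (2.49 to 2.78). Ddit4 had 142 CPM in epithelial cells and 49.5 CPM in non-epithelial cells, 2.87-fold higher (2.57 to 3.22), and Aldoc 56.6 CPM in epithelial and 10.2 CPM in non-epithelial cells, 5.56-fold higher (4.36 to 7.20).

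The 3 kinds of non-epithelial cells used different members. Hif1a was at 172 CPM in macrophage-marker, 391 CPM in endothelial-marker and 269 CPM in mesenchymal-marker cells. Vegfa was at 155 CPM in macrophage-marker, 3.09 CPM in endothelial-marker and 105 CPM in mesenchymal-marker cells. Adm ran the other way, at 0.67 CPM in macrophage-marker, 86.0 CPM in endothelial-marker and 41.1 CPM in mesenchymal-marker cells. Ankrd37 was likewise highest in endothelial-marker cells, at 79.8 CPM, against 5.99 CPM in macrophage-marker and 12.7 CPM in mesenchymal-marker cells. In endothelial-marker cells Hk1 made up 98.9% of the UMIs of Hk1 and Hk2 (176 of 178), against 16.4% in macrophage-marker and 23.3% in mesenchymal-marker cells and 26.0% in control epithelial cells. Slc2a3 supplied 35.4% of the UMIs of Slc2a1 and Slc2a3 in mesenchymal-marker cells (51 of 144) and 0 of 83 in endothelial-marker cells, where the exact binomial interval reaches 4.35%. Pfkp exceeded Pfkl in mesenchymal-marker cells, with 63.4% of phosphofructokinase UMIs.

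To ask which members vary together from cell to cell, each cell was thinned to 5960 UMIs, which left out 1 RSPO1-Fc cell, and scored by the mean log2(UMIs + 1) over the 15 enzymes and over 13 HIF targets (the 11 above with Egln1 and Egln3). Spearman's rho between the scores was 0.34 across 2750 RSPO1-Fc epithelial cells and 0.11 across 1881 control epithelial cells, with Pearson's r at 0.43 in RSPO1-Fc and 0.26 in control cells. It was 0.43 across 190 macrophage-marker, 0.26 across 78 endothelial-marker and 0.16 across 111 mesenchymal-marker cells. Cells of 1 library share their culture and are not replicates, and a rho over more abundant genes is less damped by counting noise, so the gap between libraries was not tested. Depth before thinning had a rho of −0.03 in RSPO1-Fc and 0.13 in control cells with the enzyme score, and of −0.14 in RSPO1-Fc and −0.05 in control cells with the HIF target score. The enzyme score also had a rho of 0.26 in RSPO1-Fc and 0.20 in control cells with the nuclear genes of the respiratory chain. In control cells this was above its rho with the HIF targets. By Pearson's r the order in control cells was reversed, at 0.17 with the respiratory chain genes and 0.26 with the HIF targets.

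Most of the enzymes followed one another, and the hexokinases did so little or not at all. Each member was compared with the score of the other enzymes. Ldha, which is not in the score, had the highest rho in the RSPO1-Fc library and the second highest in the control library, at 0.58 in RSPO1-Fc and 0.40 in control cells. Gapdh had 0.45 in RSPO1-Fc and 0.41 in control cells, Aldoa 0.44 in RSPO1-Fc and 0.34 in control cells, Pkm 0.42 in RSPO1-Fc and 0.31 in control cells, Tpi1 0.45 in RSPO1-Fc and 0.23 in control cells, and Pgam1 0.39 in RSPO1-Fc and 0.24 in control cells. Of the upper steps, Gpi1 had 0.33 in RSPO1-Fc and 0.19 in control cells, and Pfkl 0.27 in RSPO1-Fc and 0.20 in control cells. Eno1 had 0.45 in RSPO1-Fc cells and 0.16 in control cells, and Pgk1, whose level differed the other way, 0.24 in RSPO1-Fc and 0.32 in control cells. Detection differed in the same direction. Eno1 had a mean of 3.31 UMIs per thinned cell in RSPO1-Fc and 0.76 in control cells, and Pgk1 0.37 in RSPO1-Fc and 1.32 in control cells. A rho over fewer UMIs is more damped by counting noise, so these gaps between libraries were not tested. Beside these stood 5648 genes outside the members with a mean of at least 0.1 UMIs per thinned cell in both libraries. They were not matched to the enzymes in level. Their median rho was −0.01 in RSPO1-Fc and 0.00 in control cells, and the 95th percentile was 0.08 in RSPO1-Fc and 0.09 in control cells. The abundant ribosomal protein genes Rps19 and Rpl13 were also above that percentile in both libraries. Of the 13 enzymes with a mean of at least 0.1 UMIs per thinned cell, 11 were above that percentile in RSPO1-Fc cells and 10 in control cells. The hexokinases were below it, Hk1 at −0.02 in RSPO1-Fc and 0.08 in control cells and Hk2 at 0.02 in RSPO1-Fc and −0.01 in control cells. Hk1 lay just under it in control cells and was sparse, at a mean of 0.12 UMIs per thinned cell in RSPO1-Fc and 0.14 in control cells. Aldoc was at 0.17 in RSPO1-Fc cells and −0.07 in control cells, and Ldhb at −0.03 in control cells.

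**Figure D3:**
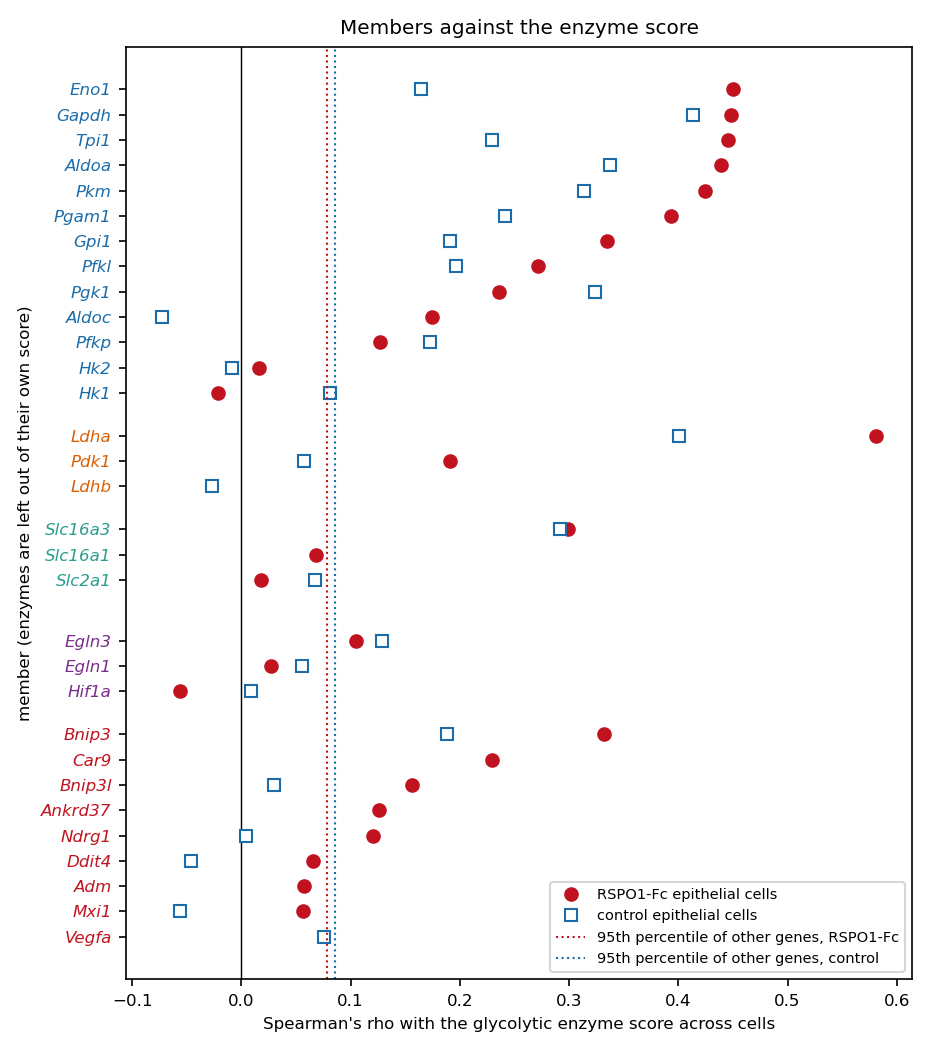
Spearman's rho of each member with the score of the other glycolytic enzymes across 2750 RSPO1-Fc epithelial cells (filled circles) and 1881 control epithelial cells (open squares), for members with a mean of at least 0.1 thinned UMIs in the library. Dotted lines mark the 95th percentile of 5648 other genes, not matched to the members in level. Ldha lies furthest right in RSPO1-Fc cells, and Hk1, Hk2, Slc2a1, Hif1a and Egln1 lie near 0.

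Outside the enzymes, 9 of 16 members with a mean of at least 0.1 UMIs were above the 95th percentile in RSPO1-Fc cells and 4 of 14 in control cells. Slc16a3 had a rho of 0.30 in RSPO1-Fc cells and 0.29 in control cells, although its level was nearly the same in both, whereas Slc16a1, 4.43-fold higher in level, had 0.07 in RSPO1-Fc cells. Bnip3 had 0.33 in RSPO1-Fc and 0.19 in control cells, Car9 0.23 in RSPO1-Fc and 0.18 in control cells, Pdk1 0.19 in RSPO1-Fc and 0.06 in control cells and Egln3 0.10 in RSPO1-Fc and 0.13 in control cells. Bnip3l had 0.16 in RSPO1-Fc and 0.03 in control cells, Ndrg1 0.12 in RSPO1-Fc and 0.00 in control cells, and Ankrd37 0.13 in RSPO1-Fc and 0.06 in control cells. Hif1a was at −0.06 in RSPO1-Fc and 0.01 in control cells, Slc2a1 at 0.02 in RSPO1-Fc and 0.07 in control cells, Ddit4 at 0.07 in RSPO1-Fc and −0.05 in control cells and Mxi1 at 0.06 in RSPO1-Fc and −0.06 in control cells. In control cells Car9 (0.059) and Ankrd37 (0.065) had a mean under 0.1 UMIs per thinned cell.

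The same thinned cells were also put into 4 groups of equal size by the enzyme score, which none of the members in the last paragraph enters. This shows the correlations above as levels and is not a separate check of them. Bnip3 averaged 0.19, 0.23, 0.34 and 0.99 UMIs per thinned cell over the groups of RSPO1-Fc cells, lowest to highest, and 0.17, 0.17, 0.23 and 0.51 over those of control cells. Car9 averaged 0.14, 0.20, 0.24 and 0.51 in RSPO1-Fc cells and 0.019, 0.023, 0.043 and 0.15 in control cells. Slc16a3 averaged 0.17, 0.23, 0.36 and 0.82 in RSPO1-Fc cells and, in control cells, 0.19, 0.21, 0.37 and 0.72. In each case the step was largest between the third and the highest group. Aldoa, an enzyme within the score, had its largest step there too. It averaged 2.89, 3.62, 4.77 and 7.79 in RSPO1-Fc cells and 1.41, 2.10, 2.72 and 4.82 in control cells. Aldoc did not in control cells (0.43 and 0.42). The part of the grouping itself in that step was not tested. Ndrg1, a stress-induced gene of differentiated epithelium, showed that step in RSPO1-Fc cells (0.44 and 0.82) and not in control cells (0.37 and 0.38). Hif1a averaged 0.34 in the lowest and 0.24 in the highest group of RSPO1-Fc cells and 0.56 and 0.59 in control cells.

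**Figure D4:**
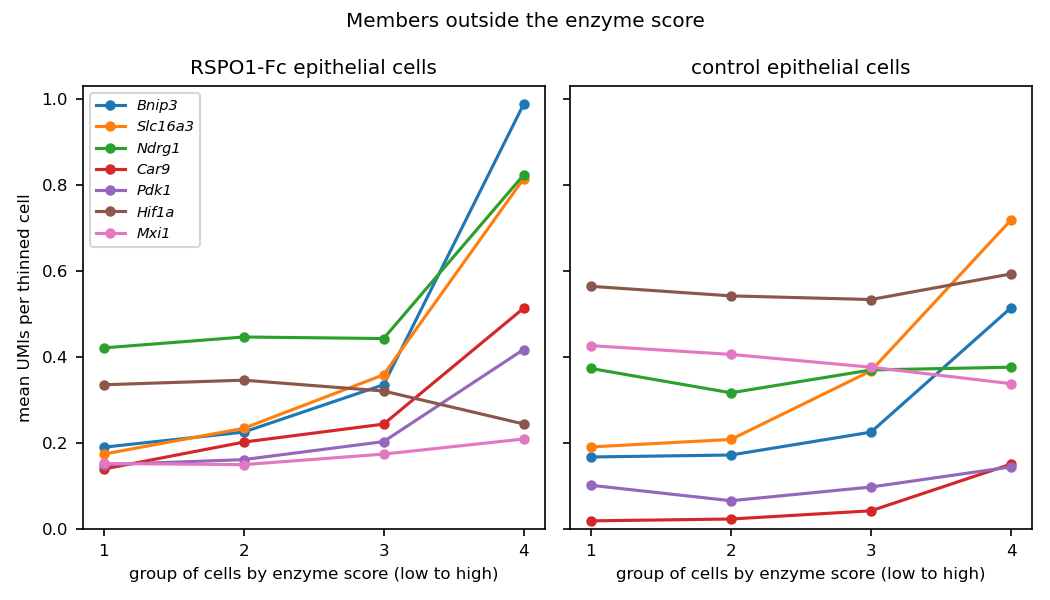
Mean UMIs per cell, after thinning to 5960 UMIs, of 7 members over 4 equal groups of cells ranked by the glycolytic enzyme score, in RSPO1-Fc (left) and control (right) epithelial cells. Bnip3 reaches 0.99 in the highest group of RSPO1-Fc cells and 0.51 in that of control cells. From the lowest to the highest group, Hif1a goes from 0.34 to 0.24 in RSPO1-Fc and from 0.56 to 0.59 in control cells. Mxi1 goes from 0.15 to 0.21 in RSPO1-Fc and from 0.43 to 0.34 in control cells.

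Between single genes, 300 pairs of 25 members were compared. Pairs of enzymes had a median rho of 0.12 in RSPO1-Fc cells and 0.08 in control cells (78 pairs), pairs of HIF targets 0.02 in RSPO1-Fc and 0.03 in control cells (21 pairs), and mixed pairs 0.04 in RSPO1-Fc and 0.02 in control cells (91 pairs). The 7 HIF targets in these pairs were Bnip3, Bnip3l, Ndrg1, Ddit4, Mxi1, Egln1 and Egln3, since Car9, Vegfa, Adm and Ankrd37 had too few UMIs in one library or the other. The highest mixed pair had 0.28 and the highest pair of HIF targets 0.19 in RSPO1-Fc cells. The highest pair was Tpi1 with Ldha in RSPO1-Fc cells (0.45, against 0.22 in control cells), and in control cells it was Gapdh with Ldha (0.36 in RSPO1-Fc cells, against 0.38 in control cells). Eno1 with Ldha had 0.38 in RSPO1-Fc cells and 0.08 in control cells, where both genes had fewer UMIs, and that gap was not tested. Of the pairs outside the enzymes, Ldha with Slc16a3 had 0.28 in RSPO1-Fc and 0.19 in control cells, and Bnip3 with Slc16a3 0.20 in RSPO1-Fc and 0.20 in control cells. Aldoc with Pgk1 was the lowest enzyme pair of the control, at −0.10, and was at 0.06 in RSPO1-Fc cells.

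**Figure D5:**
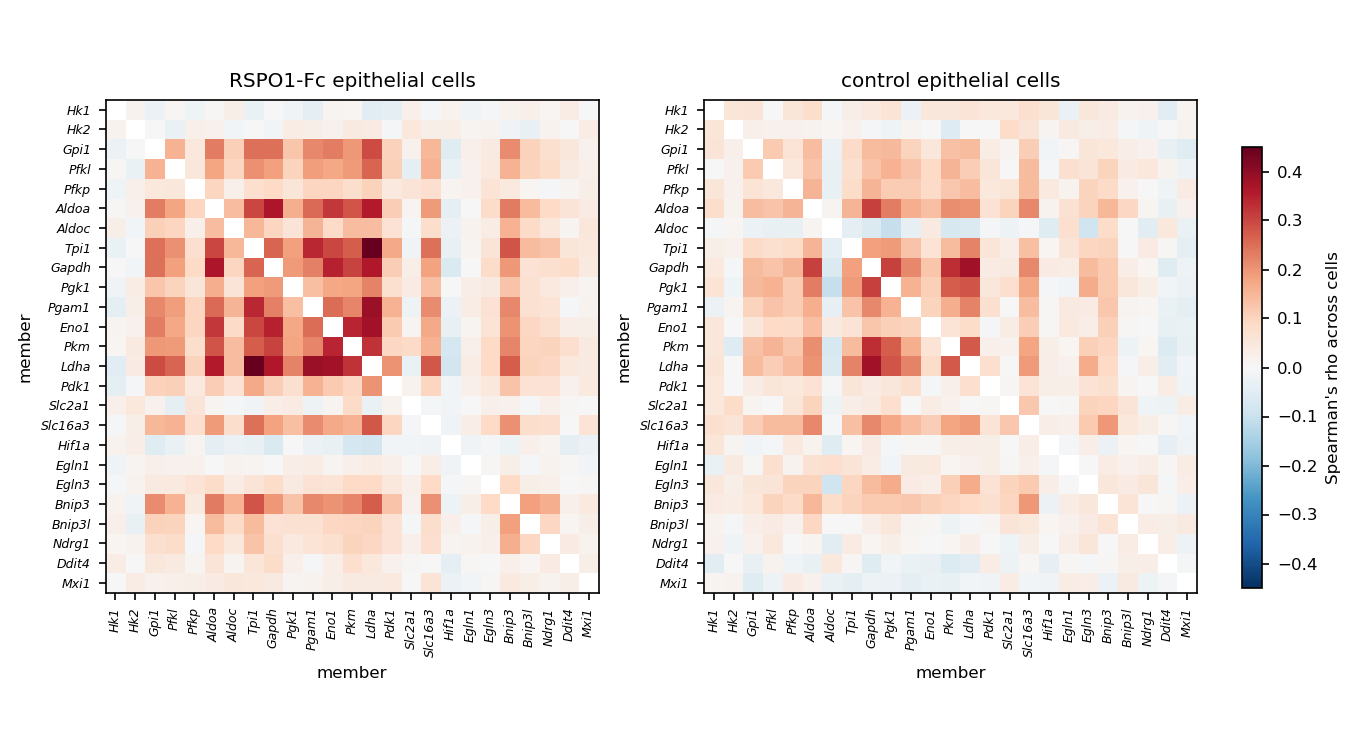
Spearman's rho between pairs of 25 members across RSPO1-Fc (left) and control (right) epithelial cells thinned to 5960 UMIs. A block of red joins Aldoa, Tpi1, Gapdh, Pgam1, Pkm and Ldha in both panels, with Eno1 redder on the left and Pgk1 redder on the right, and Hk1, Hk2 and Hif1a are pale. Eno1 and Pgk1 each had more UMIs in the library where they are redder.

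The members differed in how unevenly their UMIs were spread over cells. The variance of the thinned UMIs of Ldha was 3.09 times the mean in RSPO1-Fc cells and 2.31 times in control cells, where a value of 1 is what random sampling of equal cells gives. For the same relative spread this ratio grows with the mean, so it gives no order between genes of different level. Gapdh had 2.21 in RSPO1-Fc and 2.49 in control cells, the second at a mean of 8.65 UMIs per thinned cell. Ldhb in control cells had 2.44 at a mean of 0.46 UMIs. Adm had 1.98 in RSPO1-Fc and 1.38 in control cells, Ndrg1 1.90 in RSPO1-Fc and 1.46 in control cells, and Bnip3 1.78 in RSPO1-Fc and 1.53 in control cells. Hif1a had 1.03 in RSPO1-Fc and 1.29 in control cells and Egln1 1.01 in RSPO1-Fc and 1.10 in control cells.

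The genes outside the members most like the enzyme score, ranked by the smaller rho of the 2 libraries, were Mif (0.50 in RSPO1-Fc and 0.33 in control cells), Slc25a5 (0.19 in RSPO1-Fc and 0.19 in control cells), Fam162a (0.33 in RSPO1-Fc and 0.19 in control cells), Rps19 (0.17 in RSPO1-Fc and 0.17 in control cells) and Rpl13 (0.18 in RSPO1-Fc and 0.16 in control cells). Mif, a cytokine, and Fam162a, a mitochondrial protein, are known HIF targets. For the HIF target score the 10 nearest genes were Ets2, Camk2n1, Malat1, Thra, Grhpr, Neat1, Fam162a, Rem2, Zfp36l1 and Rnf32, with rho between 0.07 and 0.19, too weak in counts this sparse to count as a finding.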

How the data were processed

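Single cells were profiled by 10x Genomics Chromium 3′ sequencing. The deposited matrices hold unnormalized counts of UMIs. Per the labels' protocols and the submitters' processing notes, the authors made them with Cell Ranger 2.1.1 against mm10 (GRCm38), whereas the header of the control matrix, per the file headers, gives software version 3.1.0. Depth was 89437327 UMIs in the RSPO1-Fc library and 91675581 in the control library.

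Cells had at least 0.1 times the UMIs of the 99th percentile of the top 5000 barcodes (5960 and 9810 UMIs). UMIs were summed over cells for the 27514 shared Ensembl identifiers and scaled to CPM. A ratio used a pseudocount of 1 CPM on the log2 scale and, as a fold, none. Folds have 95% conditional binomial intervals and shares 95% Clopper-Pearson intervals. Genes under 20 CPM in both groups were not measured. Non-epithelial gates needed 10 UMIs of a marker list and 3 times the others, and fibroblast and pericyte markers were joined after the data were seen. Correlations used cells thinned once with a fixed seed. Members, lists and gates were chosen with earlier results of these data known. All 39 members are accounted for. In other lists the highest and lowest ratios were named, with genes most like the scores, apart from a result that is not reported here. Near copies were sought in GENCODE M21 transcripts in windows of 91 bases, the read length. The ratio and correlation steps were tested on simulated data. Tools were numpy 2.4.6, scipy 1.17.1, pandas 2.3.3, scanpy 1.11.5 (scrublet), edgeR 4.0.16 (TMM) and matplotlib 3.10.9. Other scalings, filters, pseudocounts, depths and scores were tried as alternatives. Doublets were removed only in an alternative. Only 1 library per group limits every comparison.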

Additional observations from a re-analysis of the deposited data

How the results depend on the processing

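Of the 31 measured members, 28 had the same sign under every alternative that gave them a value (14 for 25 members and 13 for Adm, Hif1a and Pgk1), the exceptions being Gapdh, Pfkp and Slc16a3, all near 0. All 13 members at least 2-fold different kept their sign, but not all stayed 2-fold different. Egln1 and Mxi1 fell under 2-fold with TMM scaling, and Pdk1 and Adm with a pseudocount of 10 CPM. Among single values, 139 left the counting interval of the value reported and 291 did not. The median log2 ratio of the enzymes (0.48) was 0.82 with TMM scaling, 0.56 without mitochondrial and ribosomal protein genes, 0.54 with a 5 CPM minimum, 0.53 as a mean of per-cell CPM and 0.60 without Gapdh, Pgk1 and Hif1a. The median of the HIF targets (0.36) was 0.70 with TMM, 0.53 without mitochondrial and ribosomal protein genes, 0.56 as a mean of per-cell CPM and 0.56 in cells thinned to 1 depth. The count of members at least 2-fold higher ran from 6 with a pseudocount of 10 CPM to 12 with TMM. The count of members at least 2-fold lower was 3 with TMM and 5 otherwise, or 4 without Pgk1. The cause of these shifts was not tested, apart from the change in the scale itself and in the members counted. Counts of members higher or lower in control epithelial cells stayed within 1.5 times under every alternative run.

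The rho between the enzyme and HIF target scores was 0.26 at 3000 UMIs per cell in RSPO1-Fc cells (0.34 at 5960), and Pearson's r was 0.43 in RSPO1-Fc cells and 0.26 in control cells. A second draw, summed UMIs, Gapdh left out and the mitochondrial and scrublet filters moved rho by less than 0.05. Subtraction of free RNA scaled by marker share was not run, because the RSPO1-Fc library held no non-epithelial cells to set the scale. Subtraction at 10% and 20% of UMIs in both libraries, and leaving out Gapdh, Pgk1 and Hif1a, were chosen after the data were seen. No paired analysis was possible because each group was 1 library. Members under 20 CPM, 8 of 39, are limited by depth, and no difference can be set against a spread between organoid cultures.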

Other observations

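Across the 190 control macrophage-marker cells, the glycolytic enzyme score had a Spearman's rho of −0.62 with the score of 10 immediate early genes, against −0.25 in 78 endothelial-marker, −0.20 in 111 mesenchymal-marker, −0.03 in RSPO1-Fc epithelial and −0.15 in control epithelial cells. Gapdh, Pgam1, Pkm and Aldoa had a rho of 0.75, 0.68, 0.68 and 0.67 with the score of the other enzymes in the macrophage-marker cells, higher than any enzyme reached in epithelial cells of either library. These are values from 1 culture, and no test was possible.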
